A study of Arabidopsis thaliana with 6 samples.

Results

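The genes described here are 10 jacalin-type lectin genes that lie next to each other on chromosome 1 of Arabidopsis thaliana, from AT1G52000 to AT1G52130. They were taken as a list of locus tags, selected on the measured difference between the genotypes in these same samples, and were matched to the array's annotation by gene identifier. Of the 10 genes, 5 have a probe set that the annotation gives to a single gene: AT1G52000, AT1G52050, AT1G52060, AT1G52070 and AT1G52100. The other 5, MBP2 (AT1G52030), MBP1 (AT1G52040), AT1G52110, AT1G52120 and AT1G52130, have no listed probe set and are not analysed here. No probe set shared by several named genes was assigned to any of the 10. Probe sequences were not used here and cross-hybridisation between these related neighbouring genes was not tested, so each probe set may also read part of a neighbour's transcript. The array as a whole gave 22746 probe sets without controls and 13333 genes with a single-gene probe set.

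Jacalin-type lectins are plant proteins built from one or more copies of a sugar-binding fold, many of which prefer mannose. In Arabidopsis and its relatives the family has expanded, often as tandem copies, and some members bind the enzymes that break down glucosinolates. MBP1 and MBP2 are named for binding myrosinase, the thioglucosidase that releases toxic products from glucosinolates when tissue is damaged. Other jacalin-type lectins have been found in complexes with PYK10, a beta-glucosidase stored in endoplasmic reticulum bodies of roots and seedlings.

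The samples were whole seedlings of the Col-0 accession, 7 days old, of 2 genotypes with 3 samples each: wild type, and cdkf;1-2, a T-DNA insertion mutant in the gene of the cyclin-dependent kinase CDKF;1. The study's title describes CDKF;1 as a kinase acting on Ser-7 in the C-terminal domain of RNA polymerase II. Plants of both genotypes grew on solid medium with 0.5% sucrose at 22 °C with 8 h of light per day and 16 h without, and were frozen 4 h into the light period. The samples are labelled as biological replicates, and nothing in the labels says whether they were separate cultures, so the spread between samples may be partly technical.

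Values are quantile-normalized signals, each the brightness of a group of short oligonucleotides on one array. Differences are mutant minus wild type of log2(signal + 16), a scale on which changes of dim transcripts come out too small. Array medians of the deposited signals ran from 85.0 to 104 in wild type and from 64.1 to 114 in the mutant, with the lowest in mutant replicate 1. Normalized samples correlated at 0.952 to 0.960 between genotypes and at 0.972 to 0.987 within them, taken over all probe sets, whose values are not independent of each other. The 25S ribosomal RNA control stood at 44.9 to 53.7 times the array median in wild type and 85.9 to 108.9 times in the mutant. The 3′ to 5′ signal ratio of actin was 2.05 to 2.48 in wild type and 2.64 to 2.91 in the mutant. That of GAPDH was 0.887 to 0.960 and 1.00 to 1.07, and that of ubiquitin was 1.60 to 1.74 and 1.38 to 1.52. The part of these shifts in the values below was not tested. CDKF;1 itself was not analysed here and the genotype labels were not checked against it.

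Within the cluster, 3 genes in a row were much lower in cdkf;1-2 seedlings and another, farther along, was higher. AT1G52060, AT1G52070 and AT1G52050 were 5.53-fold, 4.20-fold and 2.93-fold lower in the mutant, and AT1G52100 was 2.21-fold higher. The dim gene AT1G52000 had overlapping groups. So 4 of the 5 measured genes had groups that did not overlap and lay at least 2-fold apart, as did 4.57% of all probe sets. Since the genes were chosen with this contrast known, these values describe them and no test is given. In whole seedlings, fewer cells of a type and less RNA per cell cannot be told apart.

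AT1G52060 (probe set 265049_at), a jacalin-type lectin gene near the middle of the cluster, had the largest difference of the 5. In wild type replicates 1 to 3 its normalized signals were 628, 604 and 475, and in the mutant replicates, in the same order as throughout, 85.1, 75.3 and 109.9. Every mutant sample lay below every wild type sample, and the lowest wild type sample was still several times the highest mutant sample. The log2 difference was -2.47 (limma SE 0.17, n = 3 per group), which ranked 18 from the lowest of 22746 probe sets. The brightness of its probe set lay at percentile 87.9 of all probe sets in wild type and at percentile 49.3 in the mutant. Such percentiles rank brightness, which also depends on the probes, and are no ranks of transcript abundance.

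AT1G52070 (265050_at), the next gene along, had signals of 561, 385 and 405 in wild type and 63.8, 105 and 121 in the mutant. The groups did not overlap, and mutant replicate 1, the array with the lowest deposited median, gave the lowest value. The log2 difference was -2.07 (SE 0.24), rank 29 from the lowest, and the brightness moved from percentile 84.6 to 50.9. The spread among mutant samples, an SD of 0.41 in log2 units, was the widest of the 3 genes in a row. Without mutant replicate 1 the difference was -1.86.

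AT1G52050 (265048_at), on the other side of AT1G52060, had signals of 446, 306 and 365 in wild type and 104, 126 and 116 in the mutant. Its mutant samples were close together, with an SD of 0.12 in log2 units against 0.26 in wild type. The log2 difference was -1.55 (SE 0.16), rank 95 from the lowest, and the brightness moved from percentile 81.3 to 55.0.

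AT1G52100 (265051_at), a jacalin-type lectin gene farther along the chromosome, stood the other way. Its signal was 447, 610.2 and 475 in wild type and 1221, 905 and 1336 in the mutant, so the lowest mutant sample lay above the highest wild type sample. The log2 difference was 1.14 (SE 0.19), rank 422 from the highest, and the brightness moved from percentile 86.4 to 94.5.

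AT1G52000 (265053_at), the first gene of the cluster, was dim throughout, at 13.0, 18.0 and 2.79 in wild type and 2.77, 15.2 and 21.9 in the mutant. The groups overlapped from end to end, and the log2 difference was 0.09 (SE 0.31). Its brightness lay at percentiles 14.9 and 16.5 of all probe sets, and no detection calls were used, so whether it lay above background is not stated.

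**Figure D1:**
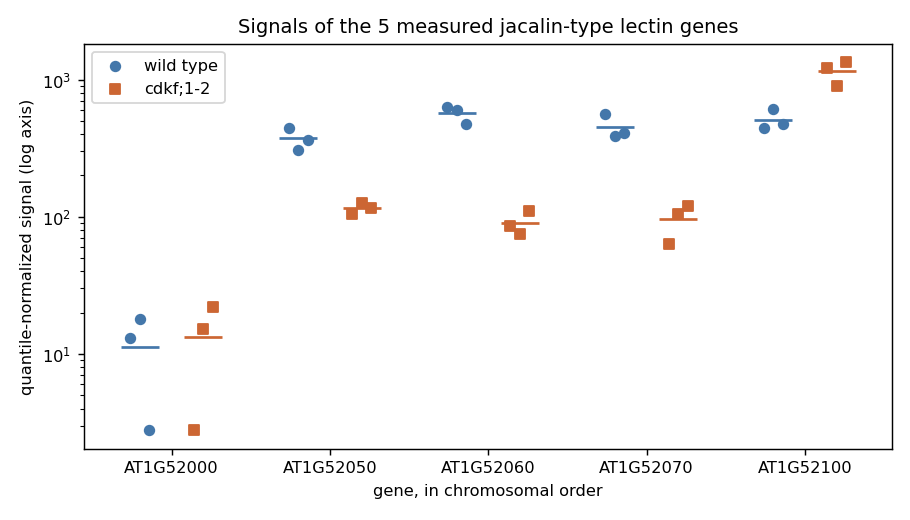
Quantile-normalized signal (log axis) of the 5 measured genes in each sample, circles for wild type and squares for cdkf;1-2, 3 samples each, with a horizontal line at each group's mean. AT1G52050, AT1G52060 and AT1G52070 were lower in every mutant sample, AT1G52100 was higher in every mutant sample, and AT1G52000 overlapped.

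The median log2 difference of the 5 measured genes was -1.55, against -0.01 over all probe sets. The directions of the 4 brighter genes were the same under the deposited signals, centring on array medians, a trimmed mean and the hybridisation spikes. Under spike scaling, where the median difference over all probe sets was 0.17, AT1G52050, AT1G52060 and AT1G52070 stood at -1.30, -2.17 and -1.78 and AT1G52100 at 1.52. Leaving out any one sample gave -2.60 to -2.35 for AT1G52060, -2.18 to -1.86 for AT1G52070, -1.68 to -1.44 for AT1G52050 and 1.01 to 1.29 for AT1G52100.

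**Figure D2:**
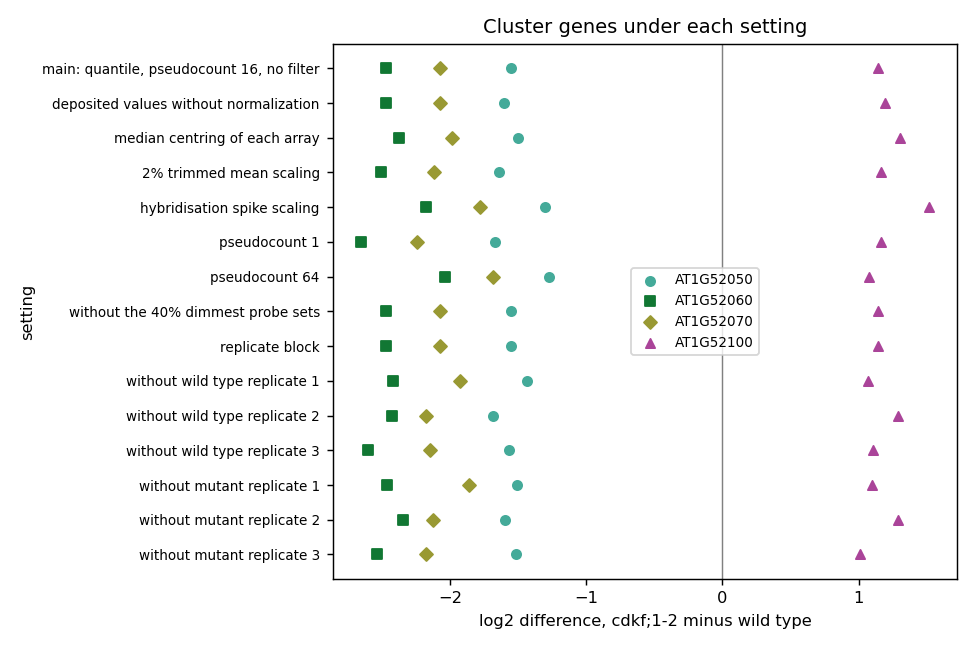
Log2 difference, mutant minus wild type, of 4 cluster genes (symbols) under each processing setting (rows). AT1G52060 stays lowest, between -2.65 and -2.04, and AT1G52100 stays above 0, between 1.01 and 1.52.

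Ratios between genes of the same array do not depend on how arrays are scaled, so they were taken from the deposited signals with nothing added. The log2 ratio of AT1G52100 over AT1G52060 was -0.14 ± 0.26 in wild type and 3.76 ± 0.07 in the mutant (SD, n = 3 each). Over AT1G52050 it was 0.44 ± 0.48 and 3.40 ± 0.38, and over AT1G52070 it was 0.18 ± 0.46 and 3.68 ± 0.41. In each of these 3 ratios all mutant samples lay above all wild type samples. The genes were chosen with their differences known and the 3 ratios share AT1G52100, so this separation is a description and no separate support. A ratio shows unequal change and does not say which of the genes changed.

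Ratios among the 3 lower genes were taken in the same way. For AT1G52060 over AT1G52050 the log2 ratio was 0.58 ± 0.31 in wild type samples and -0.36 ± 0.34 in mutant samples, with no overlap. That of AT1G52070 over AT1G52050 was 0.25 ± 0.09 and -0.28 ± 0.35, also with no overlap, and its highest mutant value, 0.06, lay close to its lowest wild type value, 0.15. The ratio of AT1G52070 over AT1G52060 was -0.33 ± 0.25 and 0.08 ± 0.43, and here the groups overlapped. On this measure AT1G52050 stood apart from AT1G52060 and AT1G52070, which were not separated from each other. These genes too were chosen with their differences known and the 3 ratios share genes, so the separations are a description.

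**Figure D3:**
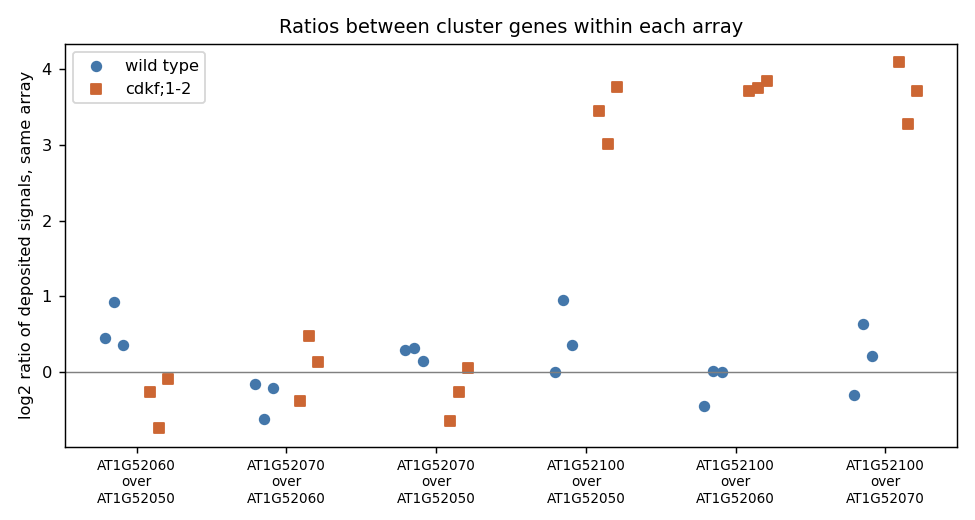
Log2 ratio of deposited signals between pairs of cluster genes on the same array, circles for wild type and squares for cdkf;1-2, 3 samples each. Ratios with AT1G52100 lie between -0.45 and 0.95 in wild type and above 3 in the mutant. AT1G52070 over AT1G52060 is the one pair whose groups overlap.

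After each genotype's mean was taken away, the deviations of AT1G52050 and AT1G52070 over the 6 samples had r = 0.75. Those of AT1G52060 had r = 0.45 with AT1G52070 and r = 0.02 with AT1G52050. AT1G52100, the higher gene, had r = -0.76 with AT1G52050, 0.60 with AT1G52060 and -0.32 with AT1G52070. These 6 points share arrays and the normalization, and are given as a description.

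Signals most like those of AT1G52060 over the 6 samples, by Pearson's r of log2(signal + 16) against 13328 other genes, belonged to AT2G17033, AT1G19900 and AT4G11570, with r = 0.998, 0.998 and 0.997. Their log2 differences were -1.01, -1.65 and -1.32. For AT1G52070 they were AT1G22750, AT3G26490 and AT1G76620, with r = 0.996, 0.996 and 0.994 and differences of -0.85, -0.83 and -0.82. The samples fall into the 2 genotypes, which these r values follow, and 381 genes passed r of 0.95 with AT1G52060 and 266 with AT1G52070. Within genotypes r was 0.868 to 0.915 for the first set and 0.943 to 0.958 for the second. These genes were picked for the highest r over the same 6 samples, which also raises r within genotypes. The values are therefore a description.

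The position of the lower genes was read from the order of genes in the RefSeq annotation TAIR10.1. From the first to the last member the annotation lists 16 genes, of which 10 are the cluster's lectin genes and 6 are not. AT1G52050, AT1G52060 and AT1G52070 follow each other with nothing annotated between them. MBP1 and MBP2, the myrosinase-binding protein genes next to AT1G52050, have no listed probe set, so how far the run of lower genes extends on that side was not measured. Between AT1G52070 and AT1G52100 lie 4 annotated genes, 3 of them pseudogenes and the other AR791 (AT1G52080).

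AR791, which adjoins AT1G52070 and is not a lectin gene of the list, fell too. Its signal was 88.9, 72.1 and 84.3 in wild type and 44.6, 40.6 and 43.3 in the mutant (log2 -0.73, SE 0.12, limma adjusted p = 0.00899). On the deposited signals AR791 did not pass (adjusted p = 0.117), nor did it with spike scaling (adjusted p = 0.0701), in a range of adjusted p from 0.00286 to 0.117 over its alternatives. The log2 ratio of AR791 over AT1G52060 went from -2.71 ± 0.30 in wild type to -1.04 ± 0.32 in the mutant (SD, n = 3 each). Over AT1G52050 it went from -2.13 ± 0.08 to -1.40 ± 0.27, and over AT1G52070 from -2.38 ± 0.15 to -1.12 ± 0.59. In none of these ratios did the groups overlap. The lectin genes were chosen with their large differences known, so the smaller difference of AR791 is a description.

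Of 17 measured genes that flank or interrupt the cluster, from AT1G51900 to AT1G52245, 1 rose, 1 fell and 15 did not pass, against 14.4% of all probe sets called by limma at an adjusted p under 0.05. Their median log2 difference was 0.10, and 11 of the 17 were dimmer than the median probe set. The one that rose was AT1G51920, on the far side of AT1G52000, from signals of 13.4, 1.25 and 3.44 to 39.3, 18.4 and 37.9 (log2 1.13, SE 0.26, limma adjusted p = 0.0287). These signals are low, so the fold depends on the added 16: with 1 in its place the difference was 2.57 and the adjusted p = 0.0776. The call of AT1G51920 was also lost without wild type replicate 2 or 3 or mutant replicate 1 or 3, in a range of adjusted p from 0.0131 to 0.134 over its alternatives. The flanking gene AT1G52220, named after its values were seen, had groups that did not overlap and did not pass (log2 -0.61, SE 0.17, limma adjusted p = 0.0512). It passed under 4 of 15 alternatives, in a range of adjusted p from 0.0212 to 0.863. IAA18 (AT1G51950), of the auxin-response repressor family and also named after its values were seen, had groups that did not overlap in the other direction and did not pass (log2 0.34, SE 0.12, limma adjusted p = 0.0935). It passed under 2 of 15 alternatives, in a range of adjusted p from 0.0292 to 0.636. Groups without overlap were common: of all 22746 probe sets 4110 had them lower and 3603 higher, at any size of difference. The pseudogenes AT1G52010 and AT1G52020, between AT1G52000 and MBP2, had overlapping groups, with differences of 0.23 and 0.01 at mean signals of 23.2 and 1.11. AT1G52010 is read by a probe set of the array's _x_at type, which can cross-hybridise with related transcripts.

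**Figure D4:**
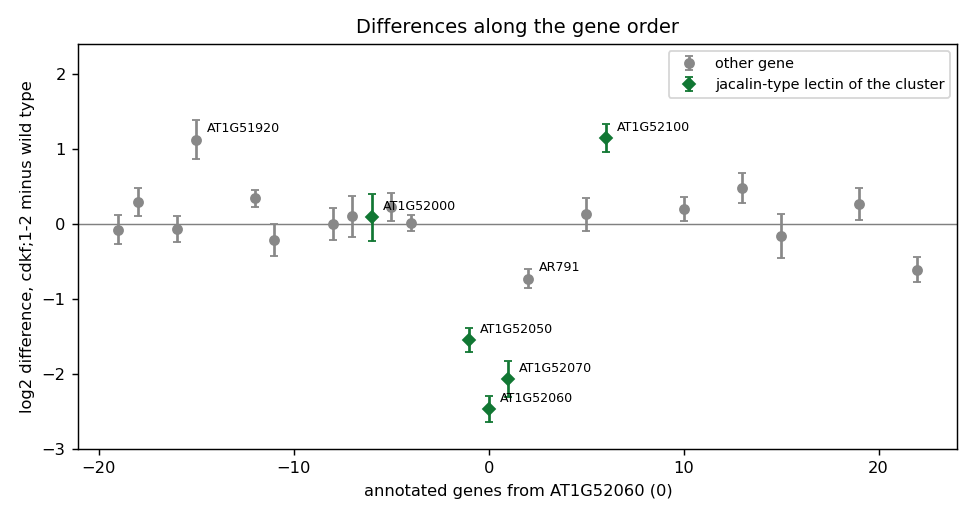
Log2 difference, mutant minus wild type (bars, limma SE, n = 3 per group), of each measured gene against its place in the annotated gene order, counted from AT1G52060. Diamonds are cluster lectin genes and circles other genes; the low values are at AT1G52050, AT1G52060 and AT1G52070, with AR791 next to them.

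Adjacent genes that were lower together were looked for across the 27444 protein-coding genes of the 5 chromosomes, of which 12262 had a single-gene probe set. Runs in which at least 3 neighbours were each at least 2-fold lower with no overlap numbered 4, and AT1G52050 to AT1G52070 is one of them. Such runs of higher genes numbered 0, while runs of at least 2 genes numbered 6 for lower and 13 for higher. In all, 1.9% of probe sets met the condition for lower and 2.66% that for higher. A gene without a probe set ends a run, which can hide a run or split one, so these counts hold for the measured genes only. This search was chosen after the values of the cluster were seen.

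Jacalin-domain genes elsewhere in the genome moved in both directions. Of a list of 36 such genes 16 were measured, of which 3 rose, 3 fell and 10 did not pass (limma; an unadjusted p under 0.05 was reached by 4 higher and 3 lower genes), and the median log2 difference was -0.10. Over all probe sets 6.94% rose and 7.42% fell. Of the 16, 10 were dimmer than the median probe set. The fall was largest for AT5G35940, whose wild type signals of 87.1, 72.3 and 94.0 compare with mutant signals of 24.3, 17.1 and 24.1 (log2 -1.41, SE 0.14, limma adjusted p = 0.00154). All mutant samples of AT5G35940 lay far below all wild type samples. Its mutant signals lie close to the added 16, and its difference was -1.92 with 1 in its place and -0.79 with 64. With 64 added AT1G19715 stood lower, at -0.87. AT1G19715 fell too (log2 -1.11, SE 0.17, limma adjusted p = 0.00639), as did AT2G25980 (log2 -0.88, SE 0.14, limma adjusted p = 0.00759). AT2G25980 did not pass on the deposited signals (adjusted p = 0.0981) or with spike scaling (adjusted p = 0.0502), in a range down to 0.00176 over its alternatives.

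The largest rise among them was that of JAL22, a lectin found in PYK10 complexes, with 521, 411 and 399.6 in the wild type samples and 940.2, 817 and 766 in the mutant ones (log2 0.90, SE 0.15, limma adjusted p = 0.00899). The lowest mutant sample lay above the highest wild type sample, though on the deposited signals the adjusted p was 0.150, the highest of a range that began at 0.00204. AT1G33790 and JAL33 rose by less (log2 0.51, SE 0.13, and log2 0.49, SE 0.11; limma adjusted p = 0.0351 and 0.0282). Both of these calls were lost when any one sample other than mutant replicate 1 was left out. Over all alternatives their adjusted p ran from 0.0177 to 0.445 and from 0.00543 to 0.346. JAL23 and JAL34, named after their values were seen, did not pass (log2 0.39, SE 0.16, and log2 -0.28, SE 0.16), and with spike scaling JAL34 stood at 0.23.

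**Figure D5:**
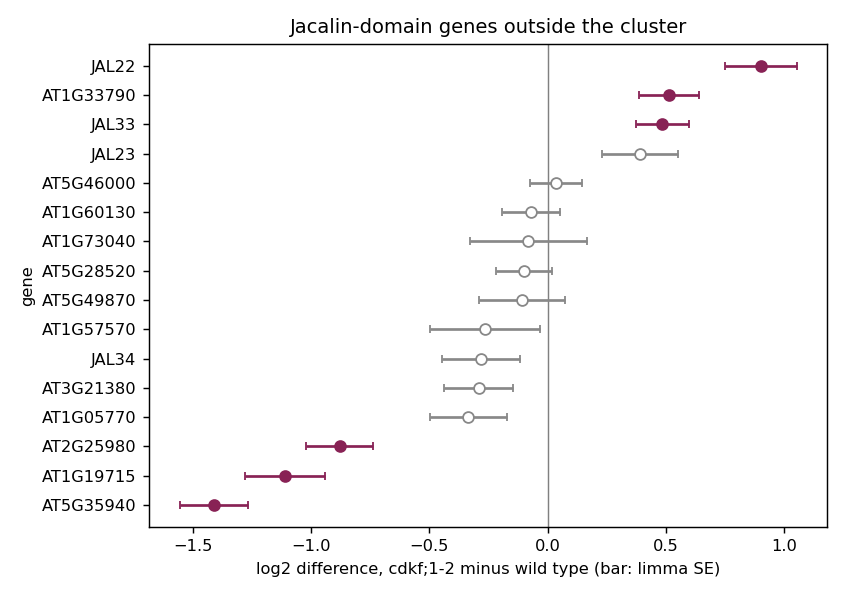
Log2 difference, mutant minus wild type, with limma SE (n = 3 per group) for the 16 measured jacalin-domain genes outside the cluster; filled points have a limma adjusted p under 0.05. AT5G35940, AT1G19715 and AT2G25980 lie below 0 and JAL22, AT1G33790 and JAL33 above it.

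Myrosinases, specifier proteins and endoplasmic reticulum body proteins could be followed only in part, since 5 of 24 listed genes were measured. MBP1 and MBP2, the cluster members named for binding myrosinase, have no listed probe set. None of the 5 passed (limma, 0 higher and 0 lower also at an unadjusted p under 0.05). With 14.4% of all probe sets called, a count of 0 among so few says little about these genes. PYK10, the beta-glucosidase of endoplasmic reticulum bodies, stood at 7649 ± 561 in wild type samples and 9022 ± 587 in mutant samples (SD, n = 3 each; log2 0.24, SE 0.12, limma adjusted p = 0.249). NAI2, a protein needed to form these bodies, had 0.25 (SE 0.17) and NAI1, a transcription factor for the same bodies, -0.04 (SE 0.13). With spike scaling PYK10 and NAI2 passed (log2 0.65 and 0.72, adjusted p = 0.0446 and 0.0480). The ranges of adjusted p over all alternatives were 0.0446 to 0.642 for PYK10 and 0.0480 to 0.734 for NAI2. Of 18 jasmonate genes 3 were measured, and of these PDF1.2b rose, where 6.94% of all probe sets were called higher (log2 0.76, SE 0.14, limma adjusted p = 0.0122), a call lost without wild type replicate 2 (adjusted p = 0.0540) and on the deposited signals (adjusted p = 0.185), in a range from 0.0134. Its probe set is of the array's _x_at type, which can cross-hybridise with related transcripts.

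Markers of tissues were set beside these values because whole seedlings hold roots, root hairs, leaves and seed remains. The root hair list had 4 of 16 genes measured, of which 3 fell and 0 rose (limma, 4 lower at an unadjusted p under 0.05), where 7.42% of all probe sets fell. Their summed signal was 705 to 902 in wild type and 201 to 278 in the mutant, with no overlap. AT3G49960, a class III peroxidase gene of that list, fell from 89.6, 151 and 115 to 1.55, 3.70 and 10.8 (log2 -2.66, SE 0.22, limma adjusted p = 0.000744). The mutant signals of AT3G49960 lie below the added 16, and the difference was -4.49 with 1 in its place and -1.39 with 64. AT4G26010 fell from 391, 528 and 497 to 143, 148 and 134 (log2 -1.62, SE 0.15, limma adjusted p = 0.00096). EXPA18, a root hair expansin, fell by 0.73 (SE 0.17, limma adjusted p = 0.0280), and without wild type replicate 1, 2 or 3 or mutant replicate 3 its call was lost (adjusted p up to 0.0996, and 0.00933 to 0.227 over all alternatives). EXPA7 did not pass (log2 -1.42, SE 0.41, limma adjusted p = 0.0620), with mutant signals of 4.41, 39.8 and 53.7 that are lowest in replicate 1. Without mutant replicate 1 all 4 root hair genes fell, and also with trimmed mean scaling, with 64 added and without the dimmest probe sets. Only 2 fell on the deposited signals, with spike scaling, with 1 added and without any one wild type replicate. Some of these root hair values were known when the list was made, so the list is no independent evidence of direction.

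The one measured gene of 16 root markers was PYK10, whose values are given above. Of 4 measured leaf photosynthesis markers of 15, PRK and PSAN fell, where 7.42% of all probe sets did (log2 -0.72, SE 0.12, and log2 -0.59, SE 0.12, limma adjusted p = 0.00942 and 0.0179). RCA and LHCB4.1 had overlapping groups and did not pass (log2 -0.17, SE 0.13, and log2 -0.15, SE 0.13). The summed signal of the 4, taken after normalization only, was 33499 to 33979 in wild type and 26105 to 27279 in the mutant. With spike scaling the differences of PRK and PSAN were -0.23 and -0.04 and neither passed (adjusted p = 0.455 and 0.940), with ranges from 0.0025 and 0.0050 over all alternatives. Neither passed on the deposited signals, and PSAN was lost under each other scaling and without wild type replicate 2 or 3 or mutant replicate 3. Of 14 seed reserve and embryo genes 2 were measured and 0 passed (limma, 1 higher at an unadjusted p under 0.05), against 14.4% of all probe sets called, and 1 passed without mutant replicate 1. The list had summed signals of 13.2 to 29.1 in wild type and 22.1 to 42.7 in the mutant. The part of any tissue's share in the values of AT1G52050, AT1G52060, AT1G52070 and AT1G52100 was not tested.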

How the data were processed

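The table deposited by the authors holds linear intensities, 1 for every probe set on each array. Per the submitters' processing notes the software was GCOS, and its settings, background correction and scaling were not given in the sources used here. Signals of 22810 probe sets were quantile-normalized, 16 was added and log2 taken. The 64 control probe sets were left out and 22746 entered lmFit and eBayes of limma 3.58.1 under R 4.3.3 (1 term for genotype, two-sided, 4 residual degrees of freedom), with Benjamini-Hochberg adjustment over all of them and a threshold of 0.05. Standard errors are limma's. The number of arrays limits the precision.

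Genes were named through the array's annotation and the RefSeq gene table of TAIR10.1. Of the probe sets, 13513 had 1 gene, 503 several and 8730 none listed. Genes with several probe sets were represented by the brightest on average. The genome build of the array design was not given in the sources used here, and coordinates are therefore left out.

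The members and gene lists were chosen with earlier results of these data known. The text names every measured member, up to 4 called genes of a list in each direction, and the genes most like AT1G52060 and AT1G52070. Alternatives were other scalings (deposited values, array median, 2% trimmed mean, 18 hybridisation spike probe sets), pseudocounts of 1 and 64, a filter on dim probe sets, another prior variance, a replicate block and each sample left out. The fit was tested on simulated data. Figures were drawn with matplotlib 3.10.9.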

Additional observations from a re-analysis of the deposited data

How the results depend on the processing

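The count of 4 cluster genes at least 2-fold apart was the same under all 14 alternatives, and the median of the cluster, -1.55, ranged from -1.81 to -1.27. Among single cluster genes, spike scaling moved AT1G52060 to -2.17 and AT1G52100 to 1.52, and a pseudocount of 64 moved AT1G52050 to -1.27 and AT1G52060 to -2.04, by more than the spread between replicates. Without the 40% dimmest probe sets AT1G52000 is left out, which gives the median of -1.81 while the other 4 genes keep their differences. The genes were chosen on this contrast in these same samples, so the unchanged count is a description and no separate support. Calls over all probe sets, 3267, went to 328 on the deposited signals and 2122 with a pseudocount of 1, and to between 1496 (without wild type replicate 2) and 4107 (without mutant replicate 1) when a sample was left out. Of 3267 calls 48.3% were higher, against 80.4% of 2181 with spike scaling. The 6 calls among jacalin genes elsewhere became 2 on the deposited signals and 4 to 6 when a sample was left out. The 0 calls among the myrosinase, specifier and endoplasmic reticulum body genes became 2 with spike scaling. The 2 calls among flanking genes became 0 on the deposited signals, 1 with spike scaling, 1 with a pseudocount of 1, 4 with a pseudocount of 64 and 1 to 2 when a sample was left out. They became 3 with centring on array medians, with the other prior variance and with the replicate block. The causes of these moves were not tested. Same-numbered samples of the genotypes deviated together with r = 0.30, 0.01 and 0.15. No values for differently numbered samples are given here, so whether the numbers pair the samples is not settled, and the main fit leaves them out. With the replicate number as a block 3382 probe sets were called. AT1G33790 then did not pass (limma adjusted p = 0.0506), while AT1G52220 (limma adjusted p = 0.0294) and 1 of 2 seed reserve genes did. No detection calls were used, so what dim signals limit is not known gene by gene.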
